A study of Mus musculus with 24 samples.

Results

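Nicotinic acetylcholine receptors are channels built of 5 subunits that open when acetylcholine binds, and the subunits that are present set the affinity and the ion flow of the channel. In the retina the transmitter is released by starburst amacrine cells, and retinal ganglion cells (RGCs), the output neurons whose axons form the optic nerve, carry several receptor types. Lynx1, a membrane-anchored protein of the Ly6 family, binds such receptors and dampens their response. The genes described here are 8 neuronal subunits (Chrna3, Chrna4, Chrna5, Chrna6, Chrna7, Chrnb2, Chrnb3, Chrnb4) and Lynx1, 9 genes in all, which were chosen by name and looked up by their Ensembl identifiers. The choice was made with earlier results of these data known. All 9 were measured at both times, among 14922 genes at 8 days and 15920 genes at 5 weeks.

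The 24 retinas came from male C57BL/6J mice with no engineered allele, 13 to 17 weeks old at the time of injury. There were 4 groups of 6: mice exposed to a 20 PSI blast wave inside an enclosed chamber (blast-mediated traumatic brain injury, bTBI) and taken after 8 days or after 5 weeks, and sham mice, which were not exposed, taken at the same times. Polyadenylated RNA was sequenced, and the extraction kit differed between the times, so that kit and time cannot be told apart, and comparisons of bTBI with sham were made within a time. The labels give the cell type as retinal ganglion cell, but 6 genes of astrocytes and Müller glia summed to between 3266 and 5952 CPM in each retina (CPM are read counts scaled to a common library size), and 4 bipolar cell genes to between 760 and 1064 CPM, against 372 to 1511 CPM for 8 RGC genes, so the samples held RNA of other retinal cells too.

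Some libraries stood apart from the rest of their group. At 8 days the 8 measured lens genes summed to at most 709 CPM in the sham retinas and to 7433 CPM in bTBI replicate 6. The 6 microglial genes summed to 92.8 to 139 CPM in sham and 150 to 316 CPM in bTBI at 8 days, and their part in the results was not tested. Results below are also given without the lens-rich bTBI replicates 5 and 6 where that changes a call, and for some of the sizes. The tables give no read totals. The values of a retina, divided by the step between them, sum to 14301989 to 25158638 over the genes kept in the tables, an estimate of depth that could not be checked.

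Of the 9 genes, 3 were lower in bTBI than in sham at 8 days and at 5 weeks, and 0 were higher (limma on log2(CPM + 1), Benjamini-Hochberg adjusted p under 0.005 over all genes). They were Lynx1, Chrna6 and Chrnb3 at both times. The study had already listed Lynx1 and Chrna6 as lower at both of its times. The counts of the 9 genes here and below thus describe a set chosen with that known and are not an independent test. Among all genes tested, 0.985% were lower and 1.27% higher at 8 days, 0.823% were lower and 0.0126% higher at 5 weeks, and 0.602% of the 14455 genes present in both tables were lower at both times. At an unadjusted p under 0.05 the genes numbered 6 lower and 1 higher at each time, against 8.93% and 8.32% of all genes at 8 days and 6.95% and 3.97% at 5 weeks. The median log2 fold change of the 9 was -0.22 at 8 days and -0.15 at 5 weeks, and that of all genes was -0.00024 and 0.0012. The fold change was negative for 7 of the 9 at each time, and for 50.1% of all genes at 8 days and 49.4% at 5 weeks.

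**Figure D1:**
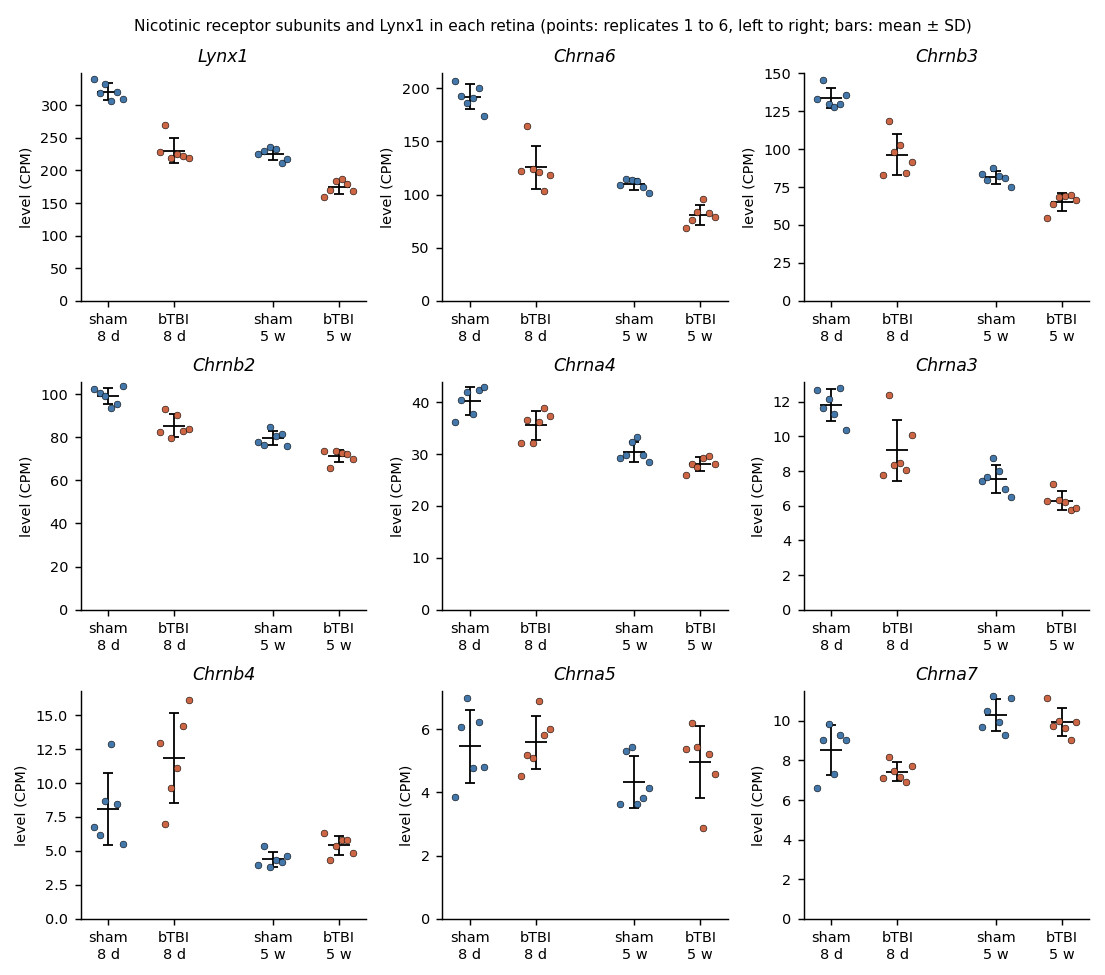
Level in CPM of each of the 9 genes in each retina, with the 6 replicates of a group from left to right and bars for the mean ± SD. The points of sham and bTBI are apart for Lynx1, Chrna6, Chrnb3 and Chrnb2 at both times and overlap for the other 5 genes.

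Lynx1 was the gene with the smallest p among the 9 at each time. It lies at chr15:74747852-74753046 on the minus strand of GRCm38. At 8 days its sham levels ran from 306 CPM over a median of 320 CPM to 340 CPM, and its bTBI levels from 219 CPM over 224 CPM to 269 CPM. All 6 bTBI retinas were below all 6 sham retinas, and bTBI replicate 2 was the highest of them, with the other 5 within 219 to 228 CPM. The mean fell from 321 ± 13.1 CPM to 231 ± 19.4 CPM (SD, n = 6), 71.8% of sham, a log2 fold change of -0.48 (SE 0.0527, limma adjusted p = 0.000174). At 5 weeks sham retinas lay between 212 and 236 CPM (median 228 CPM) and bTBI retinas between 159 and 186 CPM (median 175 CPM), again without overlap. The log2 fold change was -0.37 (SE 0.0391, adjusted p = 7.0e-06), to 77.2% of sham.

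Chrna6 and Chrnb3 encode the α6 and β3 subunits, which assemble in the same receptors and are known from RGC axons and midbrain dopamine neurons. They lie beside each other on chromosome 8, Chrnb3 at chr8:27368711-27399730 on the plus strand and Chrna6 at chr8:27403212-27413944 on the minus strand, with 3481 bases between their annotated ends. Chrna6 had the largest drop among the 9 genes at both times. Its levels at 8 days were 174, 192 and 207 CPM in sham (lowest, median and highest retina) and 103, 121 and 165 CPM in bTBI. The groups did not overlap, and bTBI replicate 2, the highest, stood above the next at 124 CPM. On average the level fell from 192 ± 11.6 to 125 ± 20.6 CPM, 65.3% of sham (log2 fold change -0.62, SE 0.0838, adjusted p = 0.000388). Without the lens-rich bTBI replicates 5 and 6 the log2 fold change was -0.54, and Chrna6 still passed. After 5 weeks the sham retinas held 102, 111 and 115 CPM and the bTBI retinas 68.2, 80.8 and 96.2 CPM. No bTBI retina reached a sham retina, and the log2 fold change was -0.44 (SE 0.0574, adjusted p = 7.50e-05), to 73.7% of sham. With an untrended prior (1 prior variance for all genes) the adjusted p at 5 weeks was 0.00575, outside the threshold.

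Chrnb3 fell at both times as well. At 8 days its lowest, median and highest levels were 128, 132 and 146 CPM in sham and 83.1, 94.8 and 119 CPM in bTBI, where replicate 2 was again the highest and the groups did not overlap. The log2 fold change was -0.48 (SE 0.0741, adjusted p = 0.000970), to 72.2% of sham. Without the lens-rich bTBI replicates 5 and 6 it was -0.42 with an adjusted p of 0.010, which misses the threshold. The levels at 5 weeks were 74.7, 81.8 and 87.3 CPM in sham and 54.4, 67.4 and 70.0 CPM in bTBI. There the groups were apart as well, with a log2 fold change of -0.32 (SE 0.0528, adjusted p = 0.00107), to 80.2% of sham. The call at 5 weeks was lost with the untrended prior (adjusted p = 0.0197) and in a fit of all 24 retinas (adjusted p = 0.00953).

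Chrnb2 encodes β2, the partner subunit of most high-affinity receptors of the brain and of the receptors that carry retinal waves during development. Its gene spans chr3:89746195-89764632. Levels at 8 days were 93.6, 99.8 and 104 CPM in sham and 79.4, 83.3 and 93.2 CPM in bTBI, and at 5 weeks 76.0, 79.2 and 84.5 CPM and 65.9, 72.4 and 73.5 CPM. The groups were apart at both times, but neither difference passed the threshold: the log2 fold change was -0.22 (adjusted p = 0.0114) at 8 days and -0.15 (adjusted p = 0.0329) at 5 weeks. Without bTBI replicate 2 the former passed (adjusted p = 0.00385). With Chrnb2, 4 of the 9 genes had all bTBI retinas below all sham retinas at each time, and 0 had them above, against 2.25% below and 1.59% above among all genes at 8 days and 1.75% and 0.239% at 5 weeks. Of the 8380 exon bases of Chrnb2, 1365 are shared with Adar on the opposite strand. The library kit marks strand, but the strand setting of the counting is not given in the sources used here; Adar stood at 130 CPM in sham and 130 CPM in bTBI at 8 days and at 107 and 102 CPM at 5 weeks.

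Chrna4, whose α4 subunit pairs with β2 in the most common brain receptor, spans chr2:181018380-181043546. It ranged from 36.1 to 42.9 CPM (median 41.2 CPM) in sham and from 32.1 to 38.8 CPM (median 36.4 CPM) in bTBI at 8 days, and from 28.4 to 33.4 CPM and 26.0 to 29.7 CPM at 5 weeks. The groups overlapped at both times. Neither the difference of -0.17 on the log2 scale at 8 days (adjusted p = 0.129) nor that of -0.11 at 5 weeks (adjusted p = 0.397) passed the test. The log2 difference between Chrna4 and Chrnb2 within a retina was -1.28 ± 0.11 in sham and -1.24 ± 0.10 in bTBI at 8 days, a shift of 0.04 (exact permutation test over the 12 retinas, two-sided p = 0.535, n = 6), and the shift at 5 weeks was also 0.04 (exact permutation p = 0.372).

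**Figure D2:**
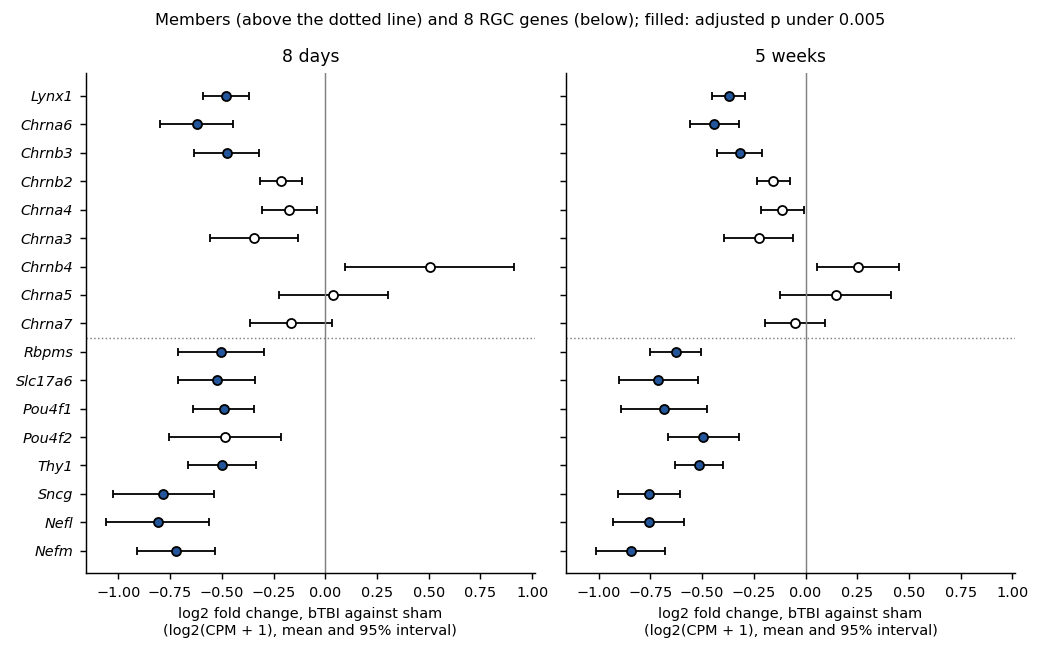
Log2 fold change of bTBI against sham, with 95% intervals from limma, for the 9 genes above the dotted line and 8 RGC genes below it, at 8 days and 5 weeks. Filled points passed an adjusted p of 0.005; they are Lynx1, Chrna6 and Chrnb3 at both times, and among the RGC genes 7 at 8 days and 8 at 5 weeks.

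Chrna5, Chrna3 and Chrnb4 form a gene cluster on chromosome 9: Chrna5 at chr9:54980880-55007779 on the plus strand, Chrna3 at chr9:55010111-55026562 and Chrnb4 at chr9:55028154-55048779 on the minus strand. There are 2331 bases between Chrna5 and Chrna3 and 1591 between Chrna3 and Chrnb4. The α3 and β4 subunits make up the receptor of autonomic ganglia, and α5 is an accessory subunit that joins others. In RefSeq the end of Chrna5 lies at 55011420, past the end of Chrna3 at 55010117, and reads there could be split between the genes. The start regions of the 3 genes are shown because the genes share a cluster and their fold changes differed in sign. None of these fold changes passed the threshold at either time, and that of Chrna5 at 8 days was 0.04 (limma adjusted p = 0.926). They are from RefSeq on GRCm38.p6, 300 bases around a transcript start, and capitals mark the GC box (GGGCGG, or CCGCCC when it is read from the other strand). Chrna5 lies at chr9:54981238-54981537 (plus strand), Chrna3 at chr9:55026513-55026812 (minus) and Chrnb4 at chr9:55048495-55048794 (minus).
Chrna5: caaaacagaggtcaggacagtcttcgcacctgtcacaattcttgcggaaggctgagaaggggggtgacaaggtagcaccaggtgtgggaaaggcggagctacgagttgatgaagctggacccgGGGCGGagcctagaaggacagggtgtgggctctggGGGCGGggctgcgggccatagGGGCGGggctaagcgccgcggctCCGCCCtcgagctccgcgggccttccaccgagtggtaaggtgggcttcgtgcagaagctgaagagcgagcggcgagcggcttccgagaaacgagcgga
Chrna3: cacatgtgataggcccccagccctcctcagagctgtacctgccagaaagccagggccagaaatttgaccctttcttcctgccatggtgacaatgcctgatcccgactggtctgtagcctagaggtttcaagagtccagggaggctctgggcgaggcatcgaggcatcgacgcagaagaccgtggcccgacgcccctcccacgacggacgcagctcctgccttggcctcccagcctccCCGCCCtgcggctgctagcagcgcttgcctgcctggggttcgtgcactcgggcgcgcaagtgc
Chrnb4: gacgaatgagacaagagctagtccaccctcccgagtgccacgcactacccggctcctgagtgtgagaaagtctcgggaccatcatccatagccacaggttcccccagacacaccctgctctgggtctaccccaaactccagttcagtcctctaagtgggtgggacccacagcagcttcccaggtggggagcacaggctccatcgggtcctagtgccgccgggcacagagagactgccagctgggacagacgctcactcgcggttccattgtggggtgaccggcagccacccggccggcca
The GC box occurred 4 times at this Chrna5 start, 0 times at its other start, 1 time in Chrna3 and 0 times in Chrnb4, and its matches did not overlap. Start regions were matched for 6 of the 9 genes, and the others, Chrna4, Chrnb2 and Chrna7, held 3, 1 and 1 GC boxes. Of all 32851 mouse promoters of the same length 35.66% held at least 1. Entries for Lynx1, Chrna6 and Chrnb3 were not at hand.

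Chrna3 was measured at 10.4, 11.9 and 12.8 CPM (lowest, median, highest) in sham and at 7.79, 8.40 and 12.4 CPM in bTBI at 8 days. Of the bTBI retinas 5 were below every sham retina and replicate 2 was among the sham values. The log2 fold change was -0.34 (SE 0.10, adjusted p = 0.0563), and without replicate 2 it was -0.43 with an adjusted p of 0.00402. Values at 5 weeks overlapped, 6.50 to 8.73 CPM in sham and 5.74 to 7.27 CPM in bTBI (log2 fold change -0.23, adjusted p = 0.228).

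Chrnb4 had the opposite sign and did not pass the test. Sham retinas at 8 days held 5.47, 7.60 and 12.9 CPM and bTBI retinas 6.97, 12.0 and 16.2 CPM, with the 2 highest bTBI values, 14.2 and 16.2 CPM, in the lens-rich replicates 5 and 6. The log2 fold change was 0.51 (SE 0.192, adjusted p = 0.161), and without these 2 retinas it was 0.32 (adjusted p = 0.494). At 5 weeks, when the summed lens genes stayed at or below 108 CPM in all retinas, sham ran from 3.78 to 5.35 CPM and bTBI from 4.34 to 6.30 CPM (log2 fold change 0.25, adjusted p = 0.265). At 8 days the sham retina with the highest lens sum, replicate 5 (709 CPM), held 8.42 CPM of Chrnb4 and 422 CPM of the lens gene Cryaa. The highest sham value of Chrnb4, 12.9 CPM, was in replicate 4. There Cryaa was 62.8 CPM, below replicate 5 alone among sham, and Otx1, listed for ciliary body and pigment epithelium, was 5.85 CPM. In bTBI replicates 5 and 6 Otx1 was 6.35 and 8.04 CPM. In bTBI replicate 1 Chrnb4 stood at 12.96 CPM, Cryaa at 24.2 CPM and Otx1 at 0.98 CPM. The part of the lens genes and of Otx1 in the Chrnb4 result was not tested beyond leaving out replicates 5 and 6.

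Within a retina the log2 difference of Chrna3 and Chrnb4 was 0.54 ± 0.39 in sham and -0.31 ± 0.56 in bTBI at 8 days, and 0.67 ± 0.23 and 0.19 ± 0.24 at 5 weeks. The shifts of -0.85 (exact permutation p = 0.0173) and -0.48 (exact permutation p = 0.0108) had the same sign, and neither passed once adjusted over the 10 pair tests (adjusted p = 0.0613 for each). Chrna3 against Chrna5 shifted by -0.38 and -0.37 (exact permutation p = 0.0368 at each time). For the neighbours Chrna6 and Chrnb3 the shift was -0.15 at 8 days (exact permutation p = 0.0584) and -0.12 at 5 weeks (exact permutation p = 0.0216), and for Chrna6 against Lynx1 -0.14 (p = 0.0325, exact) and -0.07 (p = 0.102, exact). After adjustment 0 of the 10 pair tests passed 0.05, and unadjusted 3 of 5 did so at each time.

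**Figure D3:**
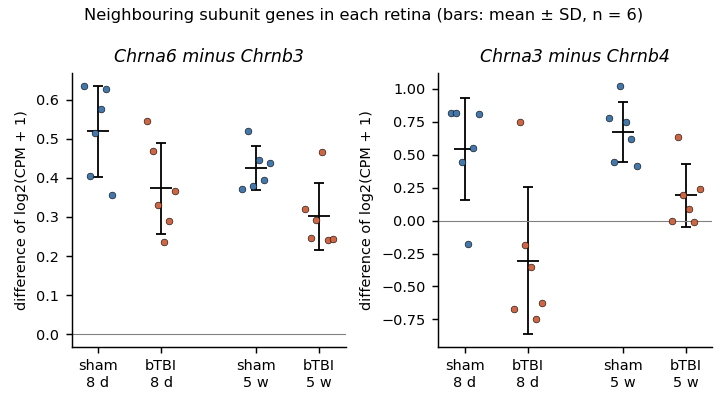
Difference of log2(CPM + 1) within each retina for the neighbouring genes Chrna6 and Chrnb3 (left) and Chrna3 and Chrnb4 (right), with mean ± SD bars of 6 retinas. For Chrna3 and Chrnb4 the bTBI mean lies 0.85 below sham at 8 days and 0.48 below at 5 weeks, and the points overlap at both times.

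The remaining subunits showed no difference that passed the test. Chrna5 lay between 3.87 and 7.0 CPM in sham and 4.52 and 6.89 CPM in bTBI at 8 days, with a log2 fold change of 0.04 (95% interval -0.22 to 0.30), and at 0.15 (-0.12 to 0.42) at 5 weeks. Chrna7, at chr7:63098692-63212569, encodes α7, which forms receptors of its own with high calcium flow. Its levels were 6.58 to 9.86 CPM in sham and 6.90 to 8.20 CPM in bTBI at 8 days and 9.30 to 11.3 and 9.03 to 11.2 CPM at 5 weeks, with log2 fold changes of -0.17 (-0.36 to 0.03) and -0.05 (-0.20 to 0.10). The intervals of these genes are wide enough to hold changes of the size seen for Chrnb2, other than that of Chrna5 at 5 weeks.

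No difference between the effects at 5 weeks and at 8 days passed the test (limma on 24 retinas over 14455 genes). At an adjusted p under 0.005, 0 of the 9 genes passed, against 0.104% of all genes lower at 5 weeks and 0% higher. At an unadjusted p under 0.05, 0 of the 9 passed as well, and the share of all genes at that threshold was not computed. For Chrna6 the effect was less negative by 0.18 at 5 weeks (95% interval -0.04 to 0.40, adjusted p = 0.711), for Chrnb3 by 0.16 (-0.04 to 0.36) and for Lynx1 by 0.11 (-0.03 to 0.24). Without the lens-rich bTBI replicates 5 and 6 of 8 days these differences were 0.10, 0.10 and 0.08. The size of the fold change was smaller at 5 weeks for 8 of the 9 genes, the exception being Chrna5. The same share was not computed over all genes, so it cannot be told whether the 9 genes differ from the rest in this.

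Levels of different genes were compared after division by the length of the exons, here the union of all annotated exons in kb. Transcripts present in the retina may be shorter than this union, which was not tested. The annotated Chrnb2 gene starts at 89746195 here and at 89753448 in RefSeq, and 1365 of its 8380 exon bases are shared with Adar. Its level per kb and its place in the order depend on this length. In sham retinas at 8 days the order was Lynx1 with 68.9 ± 2.82 CPM per kb, Chrna6 with 66.1 ± 4.01, Chrnb3 with 20.98 ± 1.01, Chrnb2 with 11.8 ± 0.46 and Chrna4 with 8.01 ± 0.55 CPM per kb. The ranges of Lynx1 and Chrna6 overlapped, and the steps from Chrna6 to Chrnb3, from Chrnb3 to Chrnb2, from Chrnb2 to Chrna4 and from Chrna4 down were larger than the ranges. Chrna3, Chrnb4, Chrna7 and Chrna5 had means of 2.24, 2.17, 1.89 and 1.75 CPM per kb with overlapping ranges. In the sham retinas of 5 weeks the first 5 genes stood in the same order, with Lynx1 at 48.4 ± 2.02 and Chrna6 at 37.8 ± 1.74 CPM per kb and no overlap between these neighbours. Below them came Chrna7 at 2.29 ± 0.18 CPM per kb, apart from Chrna3 (1.43), Chrna5 (1.38) and Chrnb4 (1.17), whose ranges overlapped. The 4 genes whose bTBI and sham retinas were apart were thus the 4 with the highest levels per kb.

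The 8 RGC genes (Rbpms, Slc17a6, Pou4f1, Pou4f2, Thy1, Sncg, Nefl, Nefm) fell together with these subunits. At 8 days 7 of the 8 were lower and at 5 weeks all 8, with median log2 fold changes of -0.51 and -0.70. In RNA of whole retina, fewer cells of a type and less RNA per cell cannot be told apart. The mean log2(CPM + 1) of the 8 genes fell from 6.59 ± 0.08 in sham to 5.99 ± 0.23 in bTBI at 8 days and from 5.96 ± 0.05 to 5.29 ± 0.21 at 5 weeks. The bTBI retina with the highest sum of these genes was replicate 2 at 8 days (1143 CPM, bTBI median 819 CPM) and replicate 4 at 5 weeks (596 CPM, median 471 CPM). Replicate 2 at 8 days also had the highest bTBI level of Lynx1, Chrna6, Chrnb3, Chrnb2 and Chrna3 and the lowest of Chrnb4, and replicate 4 at 5 weeks the highest of Lynx1 and Chrna6.

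Each gene was then set against these RGC genes in the same retina. At 8 days Chrna6 exceeded the RGC mean by 0.997 ± 0.063 on the log2 scale in sham and by 0.978 ± 0.030 in bTBI, a shift of -0.02 (exact permutation test, two-sided p = 0.498, n = 6). The shift of Chrnb3 was 0.13 (exact permutation p = 0.0584) and that of Lynx1 0.12 (exact permutation p = 0.0498), and neither passed 0.05 once adjusted over 18 tests (adjusted p = 0.0619 and 0.0560). By 5 weeks these 3 genes had fallen less than the RGC genes: Chrna6 by 0.23, Lynx1 by 0.30 and Chrnb3 by 0.36, each with groups apart and with the smallest p that the 12 retinas allow, 0.00216 (exact permutation test), or 0.00557 adjusted. Whether the shifts at 8 days and 5 weeks differ was not tested. The other 6 genes fell less than the RGC genes, or rose against them, at both times, by 0.26 (Chrna3) to 1.11 (Chrnb4) at 8 days and by 0.45 (Chrna3) to 0.93 (Chrnb4) at 5 weeks, with adjusted exact permutation p between 0.00557 and 0.0104. In all, 6 of 9 genes passed at 8 days and 9 of 9 at 5 weeks, all of them with a shift above 0. The RGC genes had themselves fallen, so a gene that did not change would also show a shift above 0. They were also chosen with earlier results known, and the study had listed most of them as lower at 5 weeks. Sncg, Rbpms and Nefm ranked 5, 6 and 7 by p among all genes at 5 weeks. A smaller fall than that of such a set does not show that a gene was spared. The share of all genes that would pass was not computed, so these counts do not set the 9 genes apart from other genes. Against Pou4f2 alone 3 of the 6 missed an unadjusted exact permutation p of 0.05 at 8 days: Chrna3 (0.14, p = 0.249), Chrna4 (0.31, p = 0.0823) and Chrna7 (0.32, p = 0.0628), and Chrna3 missed it against Thy1 alone as well (0.16, p = 0.110). For Lynx1 at 8 days the shift ran from 0.005 against Pou4f2 alone to 0.33 against Nefl alone. The result of Chrna6 at 8 days depended on the RGC gene it was set against. The shift was between -0.14 and -0.10 against Pou4f2, Pou4f1, Thy1, Rbpms and Slc17a6. Against Nefm, Sncg and Nefl it was between 0.10 and 0.19. The cause of this split was not tested. At 5 weeks the shift of Chrna6 ran from 0.05 against Pou4f2 alone (exact permutation p = 0.346) to 0.40 against Nefm, and that of Lynx1 and Chrnb3 stayed above 0 with an unadjusted exact permutation p of at most 0.0390 against each of the 8 genes.

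**Figure D4:**
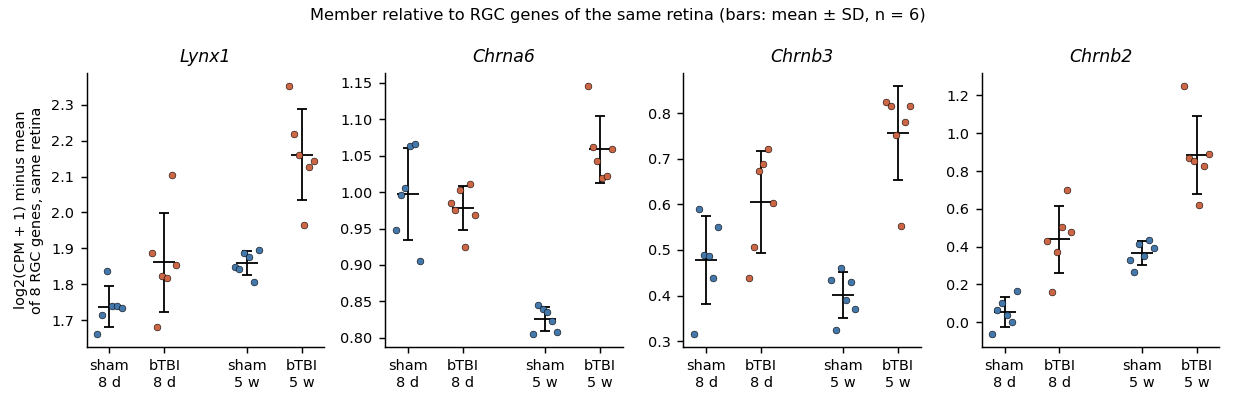
Log2(CPM + 1) of Lynx1, Chrna6, Chrnb3 and Chrnb2 minus the mean of 8 RGC genes in the same retina, with mean ± SD bars of 6 retinas. Chrna6 differs by -0.02 between bTBI and sham at 8 days and lies 0.23 above sham at 5 weeks, where the points of all 4 genes are apart.

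The genes nearest to the 3 lowered genes were found among 14386 genes with at least 1 CPM on average in each table. The distance was the root mean square difference of deviations from the sham mean, on the log2 scale over the 24 retinas. It includes the shift of bTBI against sham, by which the 3 genes were singled out. Near places among the 3 thus follow in part from that choice. Nearest to Chrna6 was Vsnl1 (0.0472), a neuronal calcium sensor, followed by Sult4a1, Panx2, Cdk14 and Clec2l. For Lynx1 it was Ina (0.0610), the neurofilament protein α-internexin, then Nat8l, Dlgap3, Cdk14 and Fgf12. Chrnb3 had Ina (0.0633), Fgf12, Caln1, Cdk14 and Mfsd6 as its closest genes. Among the 3 genes themselves, Lynx1 was at place 8 in the order of Chrnb3 and 16 in that of Chrna6, Chrnb3 at 12 in that of Lynx1 and 26 in that of Chrna6, and Chrna6 at 47 in that of Lynx1 and 68 in that of Chrnb3. Chrnb4 was near the far end of all 3 orders, at place 14097 or beyond. The distance also grows with the spread of a gene between retinas, so a far place does not by itself mean an opposite change. Chrna5, with log2 fold changes of 0.04 and 0.15, lay at place 12937 or beyond. All of these distances come from the same libraries, so depth and tissue content are shared.

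Genes of cholinergic transmission outside the 9 did not pass the threshold at either time. Unadjusted counts here, and for receptor assembly and the Ly6 family below, stand beside these shares of all genes at an unadjusted p under 0.05. They were 8.93% lower and 8.32% higher at 8 days, and 6.95% lower and 3.97% higher at 5 weeks. Of the other nicotinic subunits 2 of 8 were in the tables, Chrna2 and Chrnb1, and 0 passed at either time, with 1 higher at 8 days and 0 at 5 weeks at an unadjusted p under 0.05. The muscarinic receptors, which act through G proteins, had 4 of 5 genes in the tables and 0 calls, with 1 lower at 8 days by the unadjusted p. Of 9 genes that make, load, carry or break down acetylcholine 8 were measured and 0 passed at either time by limma; unadjusted, 2 were lower and 1 higher at 8 days and 1 was lower at 5 weeks. Chat, the enzyme that makes acetylcholine, ranged from 15.5 to 18.5 CPM in sham and 13.6 to 17.6 CPM in bTBI at 8 days (log2 fold change -0.13, adjusted p = 0.390), and its difference at 5 weeks was -0.02. Slc18a3, the vesicle transporter, differed by -0.08 and -0.04. Slc5a7, which returns choline to the cell, differed by -0.25 (adjusted p = 0.118) and 0.14 (adjusted p = 0.464). Ache, which splits acetylcholine, differed by -0.19 (adjusted p = 0.0482) and -0.10 (adjusted p = 0.414). The 5 starburst markers (Chat, Slc18a3, Slc5a7, Megf10 and Fezf1) summed to 77.0 to 87.3 CPM in sham and 71.8 to 87.4 CPM in bTBI at 8 days, and the 4 measured at 5 weeks to 52.8 to 59.2 and 56.9 to 61.2 CPM. Megf10, the most abundant of them, had a mean of 35.1 CPM in sham and 39.1 CPM in bTBI at 8 days, where Chat and Slc5a7 were at 91.3% and 83.6% of sham, and none of these differences passed the test.

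Genes of receptor assembly were measured for 4 of 4, with 0 calls at either time, and 2 lower at 8 days by the unadjusted p. Ric3, a chaperone that helps α7 and other subunits to fold, differed by -0.14 on the log2 scale at 8 days (adjusted p = 0.164) and by 0.01 at 5 weeks (adjusted p = 0.943). Tmem35a, a chaperone that many neuronal nicotinic receptors need, had -0.19 (adjusted p = 0.246) and -0.04 (adjusted p = 0.860).

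Within the Ly6 family other than Lynx1, 8 of 23 genes were measured, and 0 passed at 8 days and 1 at 5 weeks, Lypd6, another modulator of nicotinic receptors. At 5 weeks Lypd6 was measured at 25.4, 27.2 and 28.4 CPM in sham (lowest, median, highest) and at 18.5, 22.3 and 23.4 CPM in bTBI, without overlap (log2 fold change -0.30, SE 0.0567, adjusted p = 0.00349). At 8 days its range was 27.2 to 35.7 CPM in sham and 20.6 to 29.0 CPM in bTBI (log2 fold change -0.34, adjusted p = 0.0376). Its relative Lypd6b, named after its values were seen, had -0.47 (adjusted p = 0.0167) at 8 days and -0.44 (adjusted p = 0.00601) at 5 weeks, both outside the threshold. Unadjusted, 3 were lower and 2 higher at 8 days, and 2 lower and 2 higher at 5 weeks.

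**Figure D5:**
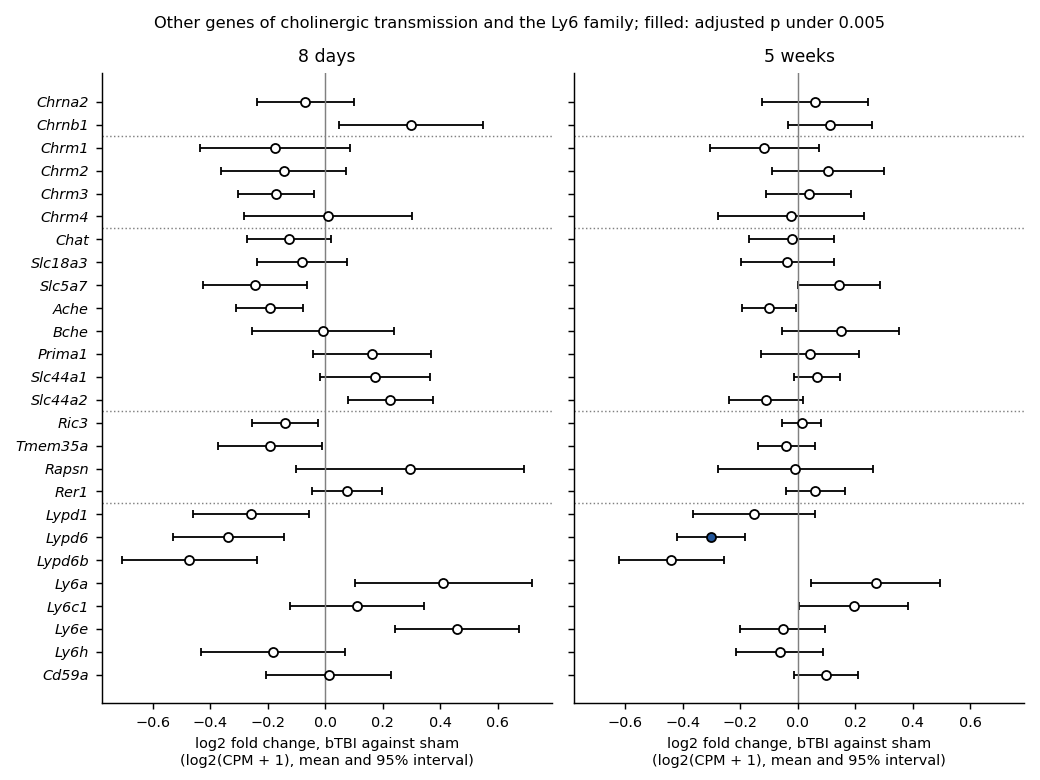
Log2 fold change of bTBI against sham with 95% intervals for other nicotinic subunits, muscarinic receptors, genes of acetylcholine handling, receptor chaperones and the Ly6 family, from top to bottom between dotted lines. The filled point is Lypd6 at 5 weeks, at -0.30, which passed an adjusted p of 0.005.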

How the data were processed

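Libraries were made from polyadenylated RNA with a stranded kit and sequenced as paired reads, 1 library per retina. Per the submitters' processing notes the authors mapped the reads to mm10 with STAR and used edgeR; the counting is stated without its strand setting. As deposited, the signal values are CPM, for which the authors scaled read counts per gene to effective library sizes, with genes of low count already removed, in a table per time. The tables hold no raw counts. Within a retina the values were whole multiples of a step to within 0.01 of it, and the sum of values over that step is an estimate of depth over the genes kept.

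Here, log2(CPM + 1) was compared within each time with limma 3.58.1 in R 4.3.3, with a trended prior and Benjamini-Hochberg adjustment over all genes, at adjusted p under 0.005. The 14455 shared genes and 24 retinas gave the difference between times. Log2 differences between genes of a retina were compared by exact permutation of the 12 labels (924 labelings, two-sided). All members, each other listed gene that passed, and Chat, Slc18a3, Slc5a7, Ache, Ric3 and Tmem35a were named by rule, with the 5 nearest genes of Lynx1, Chrna6 and Chrnb3. The 9 genes and all lists were chosen with earlier results of these data known. The tests were tested on simulated data. Coordinates and exon lengths are from GENCODE M21 on GRCm38, whose versioned identifiers match all 9 genes, and start regions are from RefSeq. By the study's methods the 12 retinas of a time came from 12 mice. Alternatives were the scaling, a filter on low values, the pseudocount, the prior, a replicate block, a fit of all retinas, a threshold of 0.05, other reference genes, and leaving out retinas. Some marker genes of other cell types are not reported here.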

Additional observations from a re-analysis of the deposited data

Results flagged for a closer look

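In 10 of 120 groups of 6 retinas looked at, the highest or lowest retina lay apart from the other 5 by Dixon's criterion, which chance meets in about 1 group in 20; the measures share retinas and genes and are not independent. bTBI replicate 2 at 8 days stood out in Chrna6 (165 CPM, the other 5 at 103 to 124 CPM), in Lynx1 (269 CPM, the others at 219 to 228 CPM) and in the log2 difference of Chrna3 and Chrnb4 (0.75, the others -0.74 to -0.18). bTBI replicate 4 at 5 weeks stood out in Chrna5 minus the RGC genes (-3.63, the others -2.78 to -2.29), Chrnb3 minus the RGC genes (0.55, the others 0.75 to 0.83), Chrna6 minus Chrnb3 (0.47, the others 0.24 to 0.32) and Chrna3 minus Chrna5 (0.90, the others 0.11 to 0.31). bTBI replicate 1 at 5 weeks stood out in Chrna6 minus the RGC genes (1.15, the others 1.02 to 1.06) and in Chrnb4 minus the RGC genes (-2.10, the others -2.82 to -2.60). Among sham retinas the only case was replicate 1 at 8 days in Chrna4 minus the RGC genes (-1.54, the others -1.25 to -1.09). The sum of RGC genes was the highest of the bTBI group in replicate 2 at 8 days (1143 CPM) and in replicate 4 at 5 weeks (596 CPM), and the lowest in replicate 1 at 5 weeks (372 CPM).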

How the results depend on the processing

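Over the 18 log2 fold changes of the 9 genes, 375 of 387 alternative values kept their direction and their side of the threshold, and Lynx1 passed in all of them. Leaving out each retina in turn gave 3 to 5 lower genes at 8 days and 3 to 3 at 5 weeks; the 5 arose without bTBI replicate 2, where Chrnb2 (adjusted p = 0.00385) and Chrna3 (adjusted p = 0.00402) passed as well. With a prior that does not follow the mean expression 1 gene was lower at 5 weeks, since Chrna6 (adjusted p = 0.00575) and Chrnb3 (adjusted p = 0.0197) missed the threshold, and 54 genes were called lower in all against 131. In the fit of all 24 retinas Chrnb3 at 5 weeks missed it (adjusted p = 0.00953) and Chrnb2 at 8 days passed (adjusted p = 0.000720). The cause was not tested. The fold change of Chrna5 at 8 days turned negative without sham replicate 1 (-0.038), without bTBI replicate 4 (-0.015) and without bTBI replicates 5 and 6 (-0.00034), and Chrna4 minus Chrnb2 turned to -0.025 without these. Chrna6 minus RGC genes at 8 days was 0.16 against Sncg alone, 0.19 against Nefl alone and 0.10 against Nefm alone.

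Replicate numbers are shared between the groups, but most samples of the same number did not deviate together. Their correlations ran from -0.25 to 0.54 at 8 days and from -0.11 to 0.15 at 5 weeks, and 1 of 12 retinas correlated best with its own number. This was replicate 1 at 8 days, at 0.54 against at most 0.35 with other numbers. With the replicate number as a block 3 genes were lower and 0 higher at each time, and 0 differed between the times. The planned count tests were not run, since the values are scaled. Chrna3, Chrna5, Chrna7 and Chrnb4 stood below 12 CPM on average in every group, and the standard errors of their fold changes were the largest of the 9 at both times.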
